A study of Mus musculus with 32 samples.

Results

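A set of 10 genes of cytokine signalling through Janus kinases (JAKs) and signal transducers and activators of transcription (STATs) were followed across sorted donor T cells in a mouse model of graft-versus-host disease. They were chosen by symbol, for their place in the pathway: the kinase gene Jak3, the transcription factor genes Stat3, Stat4, Stat5a and Stat5b, the feedback inhibitor genes Socs1, Socs2, Socs3 and Cish, and Pim1, a kinase gene that STATs switch on. These are 10 of the 16741 genes in the RNA table. T cells and regulatory T cells (Treg) of C57Bl6 donors were taken from spleen + lymph nodes, either before transfer or after transplantation into recipients, which were Balb/c mice in the allogeneic setting. The sample titles give day 6 after transplantation for the second time point, while the series text gives 8 days, and day 6 is the time attached to each library. Bulk RNA was sequenced from 31 libraries in 10 groups.

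CD4 day 0 and CD8 day 0 (2 libraries each) were conventional T cells before transplantation, and Treg day 0 (2 libraries) were donor Treg at the same time. CD4 syngeneic and CD8 syngeneic (3 libraries each) came from syngeneic recipients, whose strain the labels do not give. CD4 allogeneic and CD8 allogeneic (4 libraries each) came from allogeneic recipients without added Treg. CD4 Treg-treated and CD8 Treg-treated (4 libraries each) came from allogeneic recipients that were also given donor Treg at transplantation. Treg after transplant (3 libraries) were the Treg sorted back from Treg-treated recipients. No genotype other than the strain, and no age, is given. The library names carry one of 2 prefixes, JL019 or JL027, and for 22 of the 31 libraries a number for the recipient. The JL027 library of Treg after transplant has none, so it cannot be tied to either JL027 recipient of the CD4 and CD8 cells. The labels do not say whether day 0 cells came from single or pooled animals, so p-values measure the spread between these libraries.

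Cytokines such as interleukin 2, interleukin 7, interleukin 12 and interferon-gamma bind receptors that carry JAKs, which phosphorylate STATs, and paired STATs enter the nucleus and activate genes. Among the genes that STAT5 activates are Cish and members of the Socs family, whose proteins bind the receptors or the JAKs and damp the signal, so their transcripts are commonly read as a trace of recent cytokine signalling. Treg depend on interleukin 2 through STAT5, and STAT4 relays interleukin 12 in T cells that make interferon-gamma.

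RefSeq promoter windows (GRCm38.p6; 250 bases before to 50 bases after each annotated start) were searched for TTCNNNGAA, the spaced palindrome that STAT dimers are known to bind. It reads the same on both strands. Of the 10 genes, 9 matched an entry, with 13 windows; Socs2 had none. The motif was in 2 of the 13 windows, 1 each of Cish and Socs3, and in 8.30% of all 32851 windows (2726 windows). With 4 bases in place of 3 between TTC and GAA, the motif was in 6.95% of windows and in 0 of the 13. The Cish stretch is shown because it holds 2 matches side by side and because Cish had one of the widest ranges across the groups. The Socs3 match is given with 10 bases on each side. Capitals mark the matches. Cish lies on the plus strand at chr9:107296409-107296688, and its matches, TTCCTGGAA and TTCTTGGAA, begin at base 1 and base 12 counted from the annotated start as base 1. Socs3 lies on the minus strand at chr11:117969502-117969530, and its match, TTCTTAGAA, begins 154 bases before the start that the window is built on, which lies inside the gene's RefSeq span of 117966079 to 117970336.
Cish: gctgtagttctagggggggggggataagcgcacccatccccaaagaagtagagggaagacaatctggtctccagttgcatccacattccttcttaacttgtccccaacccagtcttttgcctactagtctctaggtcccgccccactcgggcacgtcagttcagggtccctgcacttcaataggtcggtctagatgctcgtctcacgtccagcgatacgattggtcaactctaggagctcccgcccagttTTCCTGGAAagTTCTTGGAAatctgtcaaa
Socs3: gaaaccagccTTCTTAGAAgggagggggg

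A match of this kind describes the letters and is not evidence of a bound site. The remaining 7 genes with an entry had no match in these windows, which says nothing of sequence farther away. Stat5b, Stat5a and Stat3 are neighbours on chromosome 11, with 347 bp between Stat5b and Stat5a and 1637 bp between Stat5a and Stat3.

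Some libraries stood apart from their group in genes outside the set of 10. In CD4 syngeneic JL019-2 the Cd4 value was 1659 and that of Cd8a 1956, against Cd4 values of 16526 and 14576 in the other CD4 syngeneic libraries, and the summed level of 11 myeloid marker genes was 3717462, against 93652 and 84266. Libraries also differed in how far genes with a long genomic span were high or low. This span trend, the slope of a gene's log2 deviation per doubling of genomic span, lay more than 0.06 from the nearest library of the group in CD4 syngeneic JL019-2, CD4 Treg-treated JL027-1 and CD8 Treg-treated JL019-2, a limit chosen after seeing the data. The CD4 Treg-treated group ranged from -0.121 to 0.016 and CD4 allogeneic from 0.019 to 0.045. Foxp3, which defines Treg, was lower in Treg day 0 (198 and 442) than in CD4 day 0 (1145 and 978), against the label, while the sum of 9 Treg marker genes was higher (67568 and 71124 against 13421 and 12367). In Treg after transplant, Foxp3 was at 285, 265 and 293. These values lay above CD4 Treg-treated libraries (127 to 178) but below CD4 allogeneic libraries (337.4 to 578.5). Values below are the deposited normalised counts, whose library means ran from 1227 to 2385. Read depth is unknown, and in bulk RNA fewer cells of a type and less RNA per cell cannot be told apart.

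Groups were compared with limma on log2(value + 1) across all genes, and a gene was called where the Benjamini-Hochberg adjusted p was below 0.05. Log2 changes on this scale are given as the first group minus the second, with the standard error (SE). Of 170 gene-by-comparison values (10 genes in 17 comparisons), 40 were called. Socs2 was called in 11 comparisons, Cish in 10, Socs1 in 6, Pim1 in 6, Stat4 in 4, Socs3 in 2 and Stat3 in 1. Stat5a, Stat5b and Jak3 were called in none in this fit, though alternative settings called each of them in some comparisons. With the recipient as a block, Stat5b and Jak3 were called between Treg and CD4 cells of Treg-treated recipients. With the library mean as a covariate, all of them were called in CD8 allogeneic cells against day 0.

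**Figure D1:**
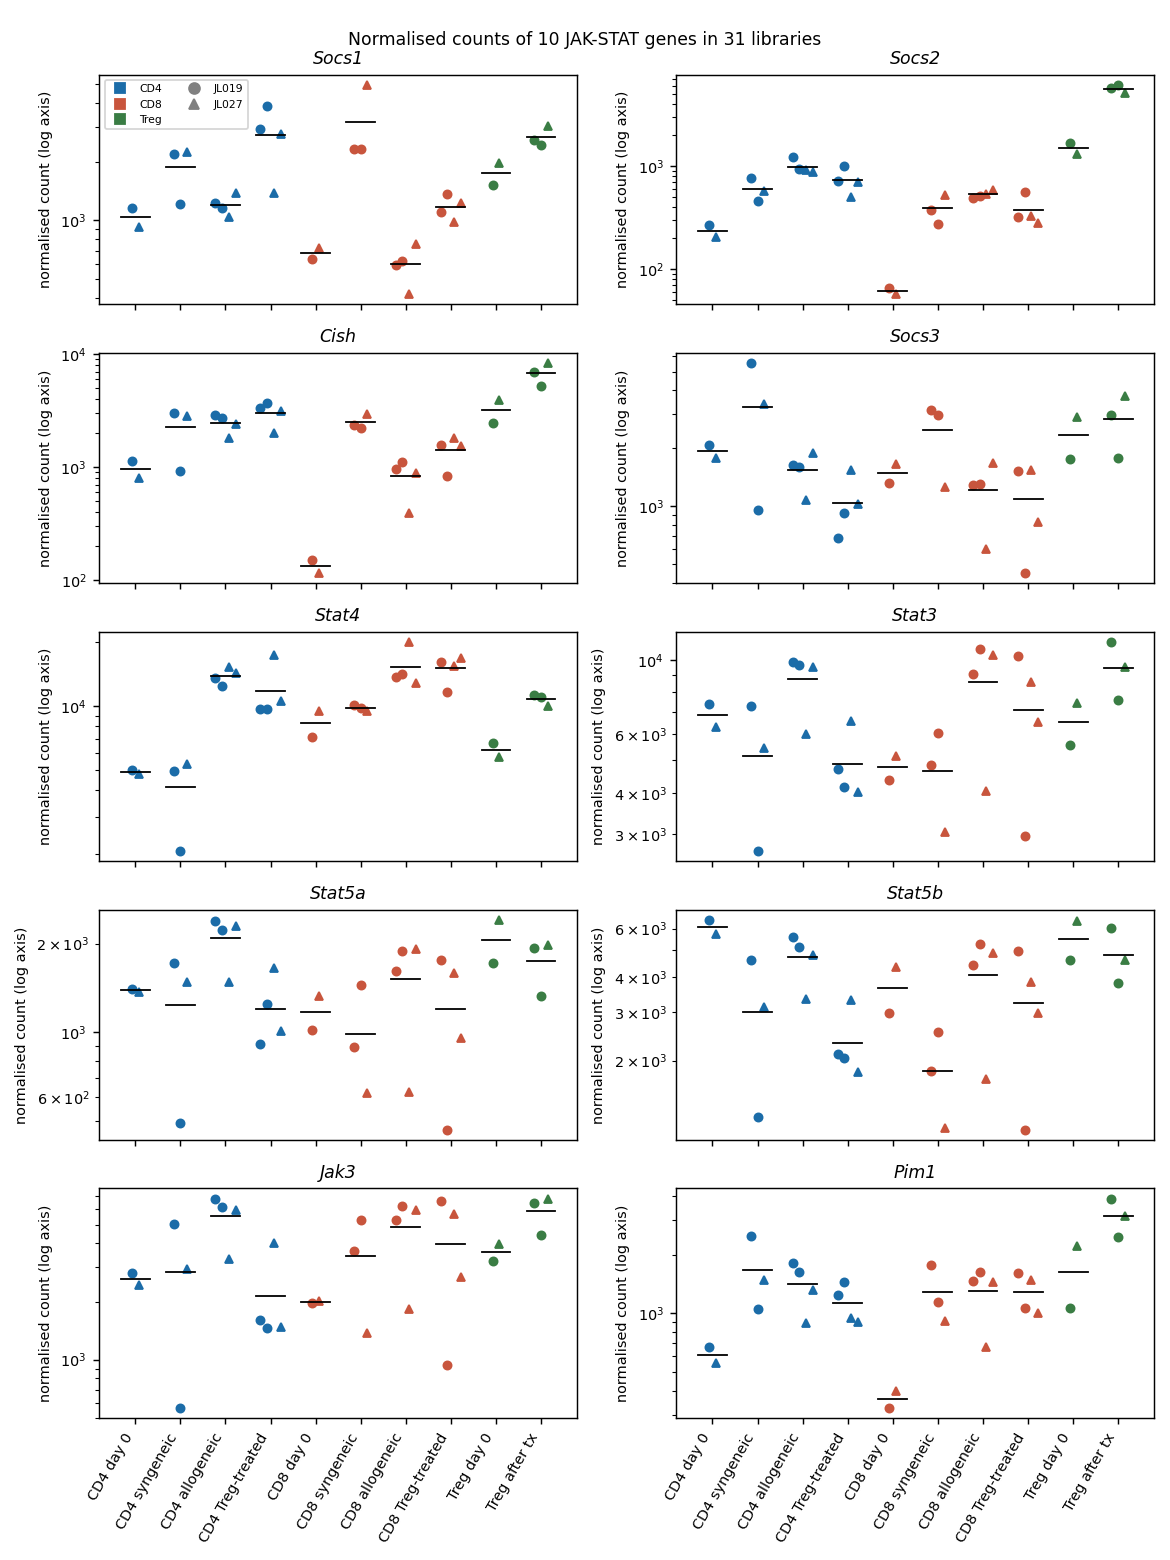
Normalised counts (log axis) of the 10 genes in each of the 31 libraries by group. Points are libraries (circles JL019, triangles JL027), coloured by cell type, and black lines are group means. Socs2 spans from 57.6 in CD8 day 0 to 6160 in Treg after transplant, while Stat3 and Stat5a overlap in every pair of groups that are neighbours in the order of means.

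Socs2, whose protein takes part in a ubiquitin ligase that removes active cytokine receptors, had the widest range. Its group means differed by up to 92.0-fold, from 61.6 in CD8 day 0 to 5672 in Treg after transplant. In Treg after transplant the libraries gave 5740, 6160 and 5114, and in Treg day 0 they gave 1689 and 1316. CD4 day 0 gave 270 and 204, and CD8 day 0 gave 65.7 and 57.6. These 4 groups did not overlap, and both Treg groups lay above every library of conventional T cells, of which the highest was CD4 allogeneic JL019-1 at 1233.

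Before transplantation, Socs2 was higher in Treg than in CD4 cells by 2.66 log2 units (SE 0.33, limma adjusted p = 6.11e-06), and lower in CD8 than in CD4 cells, at -1.92 (SE 0.33, adjusted p = 0.000434). Sums of 7 erythroid markers were 30572 to 34782 in CD8 day 0 and 728 to 1413 in CD4 day 0, and B cell marker sums 55679 to 65136 and 37191 to 42053. Their part in the day 0 differences of Socs2 and Cish was not tested. After transplantation Socs2 rose in Treg by 1.92 (SE 0.30, limma adjusted p = 3.93e-05). Erythroid sums were 120.5 to 455 in Treg day 0 and 1670 to 50243 in Treg after transplant, and myeloid sums 5412 to 5583 and 6316 to 11483. Their part in the Treg rise was not tested. Socs2 rose in CD4 cells as well, to 769, 460 and 579 in syngeneic and to 1233, 938, 926 and 880 in allogeneic recipients, all above day 0. CD8 cells reached 377, 275 and 528 in syngeneic and 498, 518, 541 and 590 in allogeneic recipients, so that no CD8 library after transplantation overlapped the day 0 values. Over day 0, CD4 allogeneic cells were higher by 2.06 and CD8 allogeneic cells by 3.10 (SE 0.28 each; in limma, adjusted p = 2.78e-06 and 2.64e-09). Syngeneic cells were higher by 1.32 in CD4 (SE 0.30, adjusted p = 0.00301 in limma) and by 2.61 in CD8 (SE 0.30, adjusted p = 1.02e-06). The CD4 syngeneic call was lost without CD4 day 0 JL027 (1.12).

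Within Treg-treated recipients, Treg held 7.74-fold the mean Socs2 value of CD4 cells (732.9) and 15.1-fold that of CD8 cells (375.2). On the log2 scale these were 2.99 and 3.96 (SE 0.25 each, adjusted p = 2.24e-09 and 3.62e-12 in limma). Within JL019 and JL027 they were 2.81 and 3.10 against CD4 cells and 3.79 and 4.06 against CD8 cells. Whether the gap between Treg and CD4 cells widened from day 0 was tested directly, and the difference of 0.33 (SE 0.41, adjusted p = 0.659 in limma) had a 95% interval from -0.52 to 1.18. Myeloid marker sums were lower in Treg after transplant (6316 to 11483) than in CD4 Treg-treated cells (28222 to 99050), and B cell marker sums over 6 genes were higher (27474 to 39444 against 14350 to 17547). In CD8 Treg-treated cells the myeloid sums were 18016 to 44246 and the B cell sums 10710 to 14394. The part of these cells in the result was not tested.

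Socs2 was also higher in CD4 allogeneic than in CD4 syngeneic cells, by 0.74 (SE 0.25, limma adjusted p = 0.0461), with no overlap of the libraries. That call was lost without any one of 6 of the 7 libraries, and without CD4 syngeneic JL019-2 the change was 0.56 (adjusted p = 0.242).

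Cish, a family member that binds phosphorylated receptor sites which STAT5 would use, had the same groups at its ends, from 150 and 117 in CD8 day 0 to 6938, 5164 and 8246 in Treg after transplant. Its group means differed by up to 50.8-fold. Treg day 0 gave 2433 and 3957, and CD4 day 0 gave 1141 and 803. CD8 day 0 thus lay below every other library, and Treg after transplant above every other library.

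At day 0, Cish was lower in CD8 than in CD4 cells, at -2.84 (SE 0.475, adjusted p = 0.000309 in limma), and higher in Treg than in CD4 cells by 1.70 (SE 0.475, adjusted p = 0.0397). The Treg difference was lost without any one of the 4 libraries (log2 change 1.35 to 2.05). In Treg-treated recipients, Cish was 2.24-fold higher in Treg than in CD4 cells and 4.74-fold higher than in CD8 cells. The corresponding log2 values were 1.17 (SE 0.36, adjusted p = 0.0169 in limma) and 2.27 (SE 0.36, adjusted p = 2.24e-05). The first was lost without Treg after transplant JL019-1 (1.14) or JL027 (1.02), and was 0.74 with the span trend as a covariate, where it was not called.

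In CD8 cells Cish rose after transplantation in both kinds of recipient. Syngeneic CD8 libraries gave 2379, 2221 and 2938, an 18.8-fold higher mean than at day 0 (log2 change 4.22, SE 0.43, limma adjusted p = 1.74e-07). Allogeneic CD8 libraries gave 959, 1108, 390 and 894, all above day 0 (log2 change 2.55, SE 0.41, adjusted p = 2.52e-05) and all below the syngeneic libraries. The allogeneic against syngeneic change in CD8 cells was -1.68 (SE 0.36, limma adjusted p = 0.00116), and it was -1.16 within JL019 and -2.31 within JL027.

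In CD4 cells the same comparison gave no call. CD4 syngeneic libraries gave 3016, 927 and 2856, and CD4 allogeneic libraries gave 2895, 2739, 1796 and 2426, a log2 change of 0.28 with a 95% interval from -0.47 to 1.02. Without CD4 syngeneic JL019-2 it was -0.28 and still not called. CD4 syngeneic against day 0 was 1.06 and not called (adjusted p = 0.108 in limma), and without that library it was 1.62 and called (adjusted p = 0.00778). The allogeneic libraries lay above those of day 0, by 1.34 (SE 0.41, adjusted p = 0.0176 in limma), a call lost without CD4 day 0 JL027 (1.09). The difference between the CD8 and the CD4 change was -1.95 (SE 0.51, limma adjusted p = 0.0241). Without CD4 syngeneic JL019-2, where Cish was lowest and the myeloid sum highest, the difference was -1.40 (adjusted p = 0.0948). It was also no longer called without CD4 allogeneic JL019-1 (-1.87), CD8 syngeneic JL027 (-1.84) or CD8 allogeneic JL027-1 (-1.62).

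**Figure D2:**
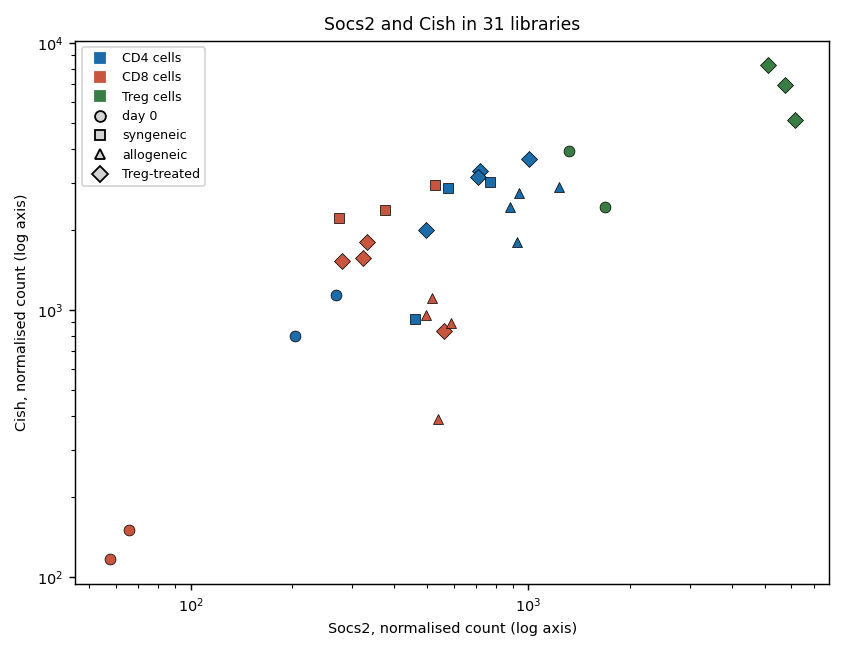
Socs2 against Cish (normalised counts, both axes log) in the 31 libraries, with cell type as colour and treatment as symbol. CD8 day 0 libraries sit lowest on both axes and Treg after transplant libraries highest, while CD8 allogeneic libraries have Socs2 of 498 to 590 with Cish of 390 to 1108.

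Over the 10 group means of log2(value + 1), Socs2 and Cish had a Pearson's r of 0.90. Within groups, over the deviations of the 31 libraries, r was 0.19. These points share libraries and normalisation, and the correlation across group means describes the levels of the groups.

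Socs1, whose protein blocks JAK activity directly and restrains interferon-gamma signalling, separated CD8 cells by recipient. CD8 syngeneic libraries gave 2310, 2318 and 4944. CD8 allogeneic libraries gave 589, 621, 419 and 755, close to the 636 and 722 of CD8 day 0. Syngeneic and allogeneic CD8 libraries did not overlap, whereas allogeneic and day 0 libraries did.

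The log2 change of Socs1 in CD8 allogeneic against syngeneic cells was -2.35 (SE 0.29, limma adjusted p = 6.79e-07), the lowest among the 10 genes in that comparison. Against day 0 it was 2.13 in syngeneic cells (SE 0.35, adjusted p = 9.91e-05) and -0.22 in allogeneic cells, which was not called. Myeloid marker sums were 42796 to 67492 in CD8 syngeneic and 11080 to 16849 in CD8 allogeneic libraries, and sums of 3 NK cell markers 5156 to 5695 and 1502 to 1887. Their part in the changes of Socs1 and Cish was not tested. In CD4 cells the allogeneic against syngeneic change was -0.60 and not called. The CD8 change differed from the CD4 change by -1.75 (SE 0.41, limma adjusted p = 0.0103), and without CD8 syngeneic JL027 the difference was -1.39 (adjusted p = 0.0505).

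Socs1 was higher in CD4 cells of Treg-treated recipients. CD4 Treg-treated libraries gave 2931, 3867, 1379 and 2785, and CD4 allogeneic libraries gave 1223, 1154, 1039 and 1389. The groups overlapped through 1 library, CD4 Treg-treated JL027-1, which stood apart in its span trend. Socs1 rose 2.28-fold in the means, or by 1.10 on the log2 scale (SE 0.27, adjusted p = 0.0123 in limma), and was higher within both prefixes, by 0.71 in JL027. Myeloid marker sums were 28222 to 99050 in CD4 Treg-treated and 8929 to 15985 in CD4 allogeneic libraries, and Cd4 was at 8722 to 9370 in 3 of the 4 Treg-treated libraries against 16706 to 21481. Their part in the result was not tested. Without CD4 Treg-treated JL019-2 the change was 0.91 (adjusted p = 0.0575), and with the span trend as a covariate it was 0.69 (adjusted p = 0.407). CD8 Treg-treated libraries gave 1101, 1372, 987 and 1224, with no overlap with CD8 allogeneic libraries, and 0.99 on the log2 scale (SE 0.27) did not pass over all genes (adjusted p = 0.15 in limma). Treg after transplant (2578, 2448 and 3031) lay above all CD8 Treg-treated libraries, by 1.20 (SE 0.29, adjusted p = 0.00216 in limma), and the call held without each library in turn. The difference between the CD8 and CD4 changes was -0.11 (95% interval -0.89 to 0.67).

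Socs3, the inhibitor best known for binding the receptor of interleukin 6, was spread within its groups. CD4 syngeneic libraries gave 5506, 960 and 3384, and CD8 Treg-treated libraries gave 1525, 453, 1533 and 824. Every pair of neighbouring groups in the order of means overlapped. Socs3 was called in 2 comparisons, where Treg after transplant (2992, 1781 and 3745) lay above CD4 Treg-treated (683, 917, 1541 and 1023) and above CD8 Treg-treated libraries. The differences were 1.44 and 1.49 (SE 0.48 each, adjusted p = 0.0243 and 0.0171 in limma). With the span trend as a covariate the first was -0.05 (adjusted p = 0.959) and the second 0.32 (adjusted p = 0.538), so neither call held. Both were also lost without Treg after transplant JL019-1 or JL027. The first was lost without CD4 Treg-treated JL019-1 or JL019-2 as well, and the second without CD8 Treg-treated JL019-2. Between CD4 allogeneic and syngeneic cells Socs3 was at -0.79 and not called (adjusted p = 0.322 in limma), and without CD4 syngeneic JL019-2 it was at -1.51 and called (adjusted p = 0.0298). With the span trend as a covariate it was called there as well (-1.03, adjusted p = 0.0207 in limma). That setting also called Socs3 in CD8 allogeneic against syngeneic cells (-1.77, adjusted p = 0.000276) and in CD8 syngeneic cells against day 0 (1.80, adjusted p = 0.0039).

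Stat4 was higher in CD4 cells of allogeneic recipients. CD4 day 0 gave 4995 and 4784, CD4 syngeneic 4957, 2068 and 5349, and CD4 allogeneic 13574, 12445, 15206 and 14317. Allogeneic libraries overlapped neither of the other groups. Stat4 was 3.37-fold higher than in syngeneic cells (log2 1.87, SE 0.25, adjusted p = 4.64e-06 in limma) and 2.84-fold higher than at day 0 (SE 0.28 on the log2 scale, adjusted p = 0.000187). Without CD4 syngeneic JL019-2, the lowest library, the first was 1.43 (adjusted p = 2.92e-05). Myeloid marker sums were 84266 to 3717462 in CD4 syngeneic and 8929 to 15985 in CD4 allogeneic libraries, and B cell marker sums 18407 to 39769 and 9412 to 12844. Their part in the changes of Stat4 and Socs2 was not tested. CD4 Treg-treated libraries gave 9676, 9624, 17449 and 10499, a log2 change of -0.28 against allogeneic that was not called.

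Stat4 at day 0 was not called between CD8 and CD4 cells (0.74, SE 0.32, adjusted p = 0.321 in limma). CD8 day 0 gave 7129 and 9423, CD8 syngeneic 10123, 9768 and 9485, and CD8 allogeneic 13746, 14207, 20042 and 12818. Against day 0 the allogeneic change was 0.87 (SE 0.28, limma adjusted p = 0.02), and it was lost without CD8 day 0 JL019 or CD8 allogeneic JL027-1 (0.67 and 0.73) and under quantile normalisation (0.40). Allogeneic CD8 libraries lay above all syngeneic libraries, but the change of 0.61 was not called (adjusted p = 0.08). The CD8 change differed from the CD4 change by -1.25 (SE 0.35, limma adjusted p = 0.0353). That difference was -0.82 without CD4 syngeneic JL019-2 (adjusted p = 0.128) and fell short of the threshold without any one of 10 of the 14 libraries.

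Stat3, which relays interleukin 6, interleukin 10 and interleukin 21, ranged from 2677 to 11309 across the libraries. Its group means differed by 2.04-fold, and every pair of neighbouring groups overlapped. The only call was Treg after transplant (11309, 7563 and 9534) against CD4 Treg-treated cells (4717, 4166, 6561 and 4014), at 0.97 (SE 0.37, limma adjusted p = 0.0499). With the span trend as a covariate the change was -0.17, and it was not called with the prefix as a replicate block (0.96, adjusted p = 0.0577) or without any one of 6 of the 7 libraries.

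Stat5a and Stat5b encode the paired factors that interleukin 2 and interleukin 7 activate. Neither was called in any comparison of the fit described above. With the library mean as a covariate, both were called in CD8 allogeneic cells against day 0. The changes were then 1.326 for Stat5a (adjusted p = 0.0114 in limma) and 1.105 for Stat5b (adjusted p = 0.0401). With the span trend in its place they were 0.623 and 0.425 and not called. Stat5b was highest in CD4 day 0 (6415 and 5750) and lowest in CD8 syngeneic cells (1833, 2538 and 1141). CD4 Treg-treated libraries (2113, 2043, 3308 and 1815) all lay below CD4 allogeneic libraries (5608, 5147, 3327 and 4799), at -1.04 on the log2 scale (SE 0.40, adjusted p = 0.064 in limma). Without CD4 Treg-treated JL027-1 the change was -1.22 (adjusted p = 0.0308). Treg after transplant (6039, 3805 and 4636) lay above all CD4 Treg-treated libraries, by 1.07 (SE 0.44, adjusted p = 0.0643 in limma), and with the recipient as a block this was called (1.10, adjusted p = 0.0395). With the span trend as a covariate neither comparison of Stat5b was called, and the signs turned, to 0.09 for Treg treatment and -0.26 for Treg against CD4 cells. Stat5a gave 909, 1243, 1648 and 1005 against 2378, 2224, 1485 and 2296 in the same groups, which overlapped through JL027-1 of each.

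Jak3 encodes the kinase that pairs with the common gamma chain of interleukin 2 family receptors. In CD4 allogeneic libraries it gave 6747, 6158, 3322 and 5936, and in CD4 Treg-treated libraries 1602, 1467, 4037 and 1482. The 3 lowest Treg-treated libraries lay below every allogeneic library, and JL027-1 lay above 1 of them. The change was -1.47 (SE 0.58, adjusted p = 0.0656 in limma), and it was -1.82 (adjusted p = 0.0228) once CD4 Treg-treated JL027-1 was left out. Treg after transplant (6468, 4435 and 6789) lay above all CD4 Treg-treated libraries, by 1.58 (SE 0.62, adjusted p = 0.0548 in limma), and with the recipient as a block this was called (1.63, adjusted p = 0.0338). With the span trend as a covariate neither comparison of Jak3 was called, and the signs turned, to 0.39 for Treg treatment and -0.62 for Treg against CD4 cells. CD8 Treg-treated libraries gave 6631, 940, 5662 and 2678, so 2 libraries lay among the highest values of Jak3 and 1 near the lowest. In CD8 allogeneic cells against day 0 the change of Jak3 was 1.14 and not called (adjusted p = 0.226 in limma). It was called there with the span trend (1.75, adjusted p = 0.000682) or the library mean (2.94, adjusted p = 2.01e-05) as a covariate. The span trend also gave calls in other comparisons, such as CD8 syngeneic against day 0 (2.33, adjusted p = 0.000556).

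Pim1, a survival kinase gene, was lowest in CD8 day 0 (326 and 396) and highest in Treg after transplant (3858, 2461 and 3148), an 8.74-fold difference of means. Neither day 0 group of conventional T cells overlapped any later group. Pim1 rose against day 0 in CD4 syngeneic (1.36), CD8 syngeneic (1.77), CD4 allogeneic (1.16) and CD8 allogeneic cells (1.78) (adjusted p = 0.022, 0.00256, 0.0248 and 0.000656 in limma, in that order). Marker sums of other cells also differed from day 0. Myeloid sums went from 3307 to 4352 in CD4 day 0 to at least 8929 in later CD4 libraries, and from 8578 to 9744 in CD8 day 0 to at least 11080 in later CD8 libraries. B cell sums were 8997 to 26687 in CD8 syngeneic and allogeneic libraries and 9412 to 12844 in CD4 allogeneic libraries, below those of day 0 given above, and erythroid sums were 563 to 14787 in CD8 syngeneic and allogeneic libraries. NK cell marker sums were 1289 to 1552 in CD8 day 0 and 5156 to 5695 in CD8 syngeneic libraries. The part of these markers in the rises of Socs2, Cish, Socs1, Stat4 and Pim1 over day 0 was not tested. The Pim1 call in CD8 allogeneic cells held without each library in turn. The CD4 syngeneic call was lost without any one of 3 libraries, the CD8 syngeneic call without CD8 day 0 JL019, and the CD4 allogeneic call without any one of 4.

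In Treg-treated recipients, Pim1 was higher in Treg than in CD4 cells by 1.48 (SE 0.33, limma adjusted p = 0.00179) and than in CD8 cells by 1.30 (SE 0.33, adjusted p = 0.00341). With the span trend as a covariate the first was 1.16 and not called (adjusted p = 0.0693 in limma). Between allogeneic and syngeneic recipients its change was -0.20 in CD4 and 0.01 in CD8 cells, neither of them called.

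**Figure D3:**
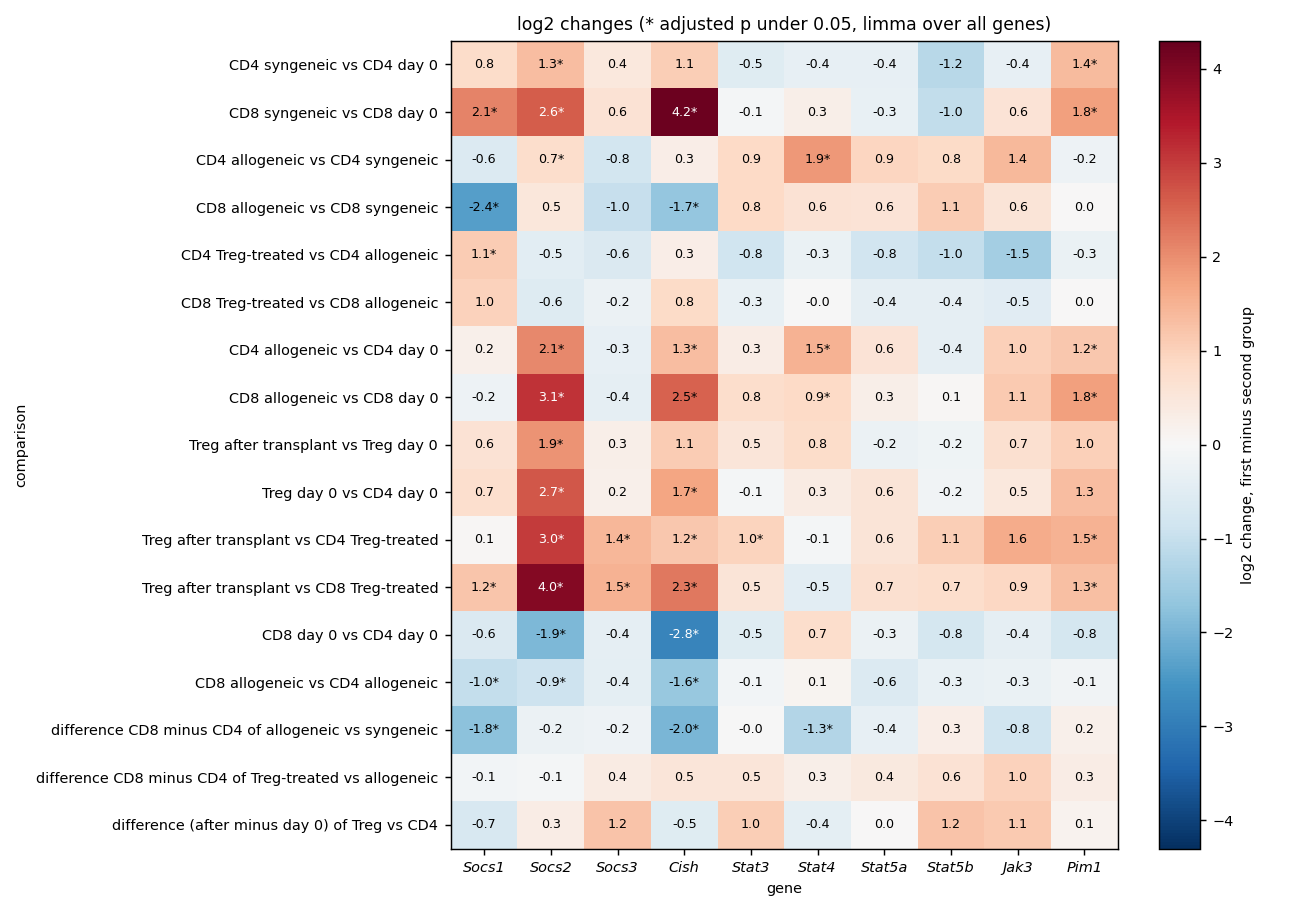
Log2 changes of the 10 genes in 17 comparisons (colour and number, first group minus second), with stars at limma adjusted p under 0.05 over all genes. Stars concentrate in the columns of Socs2 (11) and Cish (10), and the columns of Stat5a, Stat5b and Jak3 hold none.

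The counts of called genes were set beside the share of all 16741 genes called in the same comparison. Against day 0, 2 of the 10 were called in CD4 syngeneic cells (13% of all genes), 4 in CD8 syngeneic (24.2%), 4 in CD4 allogeneic (24%) and 4 in CD8 allogeneic cells (30.4%). All of these were higher after transplantation. Without CD4 day 0 JL027 the CD4 counts were 0 in syngeneic and 2 in allogeneic cells, and without CD4 day 0 JL019 the syngeneic count was 1. In Treg, 1 of 10 was called after transplant against day 0 (13.3% of all genes). That count was 7 with the library mean as a covariate (26.8%), 6 with the span trend (22.8%), 6 with only those groups fitted (23.9%) and 3 without the 3 libraries that stood apart in span trend (21.6%).

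Between allogeneic and syngeneic recipients, 2 of 10 were called in CD4 cells (14.6% of all genes), both higher, and 2 in CD8 cells (21.1%), both lower. The CD4 count was 1 without CD4 syngeneic JL027 or any one of the 4 CD4 allogeneic libraries, and the CD8 count was 4 without CD8 allogeneic JL027-1, where Stat5b (1.48) and Stat3 (1.17) were also called. The difference of these changes between CD8 and CD4 cells was called for 3 of 10 (4.65% of all genes). Leaving out CD8 syngeneic JL027 took that count to 0, and leaving out CD4 syngeneic JL019-2 or CD4 allogeneic JL019-1 took it to 1.

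Treg treatment gave 1 call of 10 in CD4 cells (22.2% of all genes) and 0 in CD8 cells (0.0657%). The CD4 share moved with the processing, to 0.418% with the span trend and 3.4% with the library mean as a covariate, and to 41.7% without the 3 libraries that stood apart in span trend. In CD8 cells limma found 3 of the 10, and 11.1% of all genes, at an unadjusted p below 0.05. Removing CD4 Treg-treated JL027-1 raised the CD4 count to 4, with Jak3, Stat5b (-1.22) and Stat3 (adjusted p = 0.0376 in limma) also called, and removing JL019-2 took it to 0. The difference of the Treg effect between CD8 and CD4 cells was called for 0 of 10 (0.00597% of all genes) and was at an unadjusted p below 0.05 for 0 as well.

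Cell types were compared at the same time point. Treg against CD4 cells gave 2 of 10 at day 0 (3.89% of all genes) and 5 of 10 after transplantation (30%). Treg against CD8 cells of Treg-treated recipients gave 5 of 10 (36.2%), and the calls of all 3 comparisons were higher in Treg. The day 0 count was 1 without any one of the 4 libraries. The count against CD4 cells after transplantation was 3 without CD4 Treg-treated JL019-1 or JL019-2 and 2 without Treg after transplant JL019-1 or JL027, and it was 7 without CD4 Treg-treated JL027-1. It was 1 with the span trend as a covariate (11.2% of all genes) and 2 with the library mean (18%). CD8 against CD4 cells gave 2 of 10 at day 0 (3.32%) and 3 of 10 in allogeneic recipients (6.15%), all lower in CD8 cells. In the allogeneic pair these were Cish (-1.63), Socs1 (-1.03) and Socs2 (-0.88). NK cell marker sums were 1502 to 1887 in CD8 allogeneic and 449 to 569 in CD4 allogeneic libraries, and their part in these calls was not tested. Socs1 was not called without CD4 allogeneic JL027-2 (-0.96) or CD8 allogeneic JL027-1 (-0.88), nor Socs2 without CD4 allogeneic JL019-1 (-0.77) or CD8 allogeneic JL019-1 (-0.84). The difference of the Treg against CD4 change between the 2 times was called for 0 of 10 (4.71% of all genes), with 0 at an unadjusted p below 0.05 in limma.

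Some of the 10 genes varied together among libraries of one group. Over the within-group deviations of 31 libraries, Jak3, Stat3, Stat5a, Stat5b and Socs3 had pairwise Pearson's r of 0.91 to 0.99. With these 5 genes, Pim1 had r of 0.65 to 0.73 and Cish 0.63 to 0.70. The same deviations had an r with the span trend of 0.85 for Jak3, 0.76 for Stat3, Stat5a and Socs3, and 0.75 for Stat5b. Cish (0.30), Pim1 (0.25), Socs1 (-0.43) and Socs2 (-0.52) had smaller or opposite values, and Stat4 had 0.57. Over all genes the median was -0.02, with 10th and 90th percentiles of -0.80 and 0.74. Socs3 has a genomic span of 4258 bp and Stat3 one of 52789 bp, and both had an r of 0.76. The cause of the shared deviation was not tested.

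**Figure D4:**
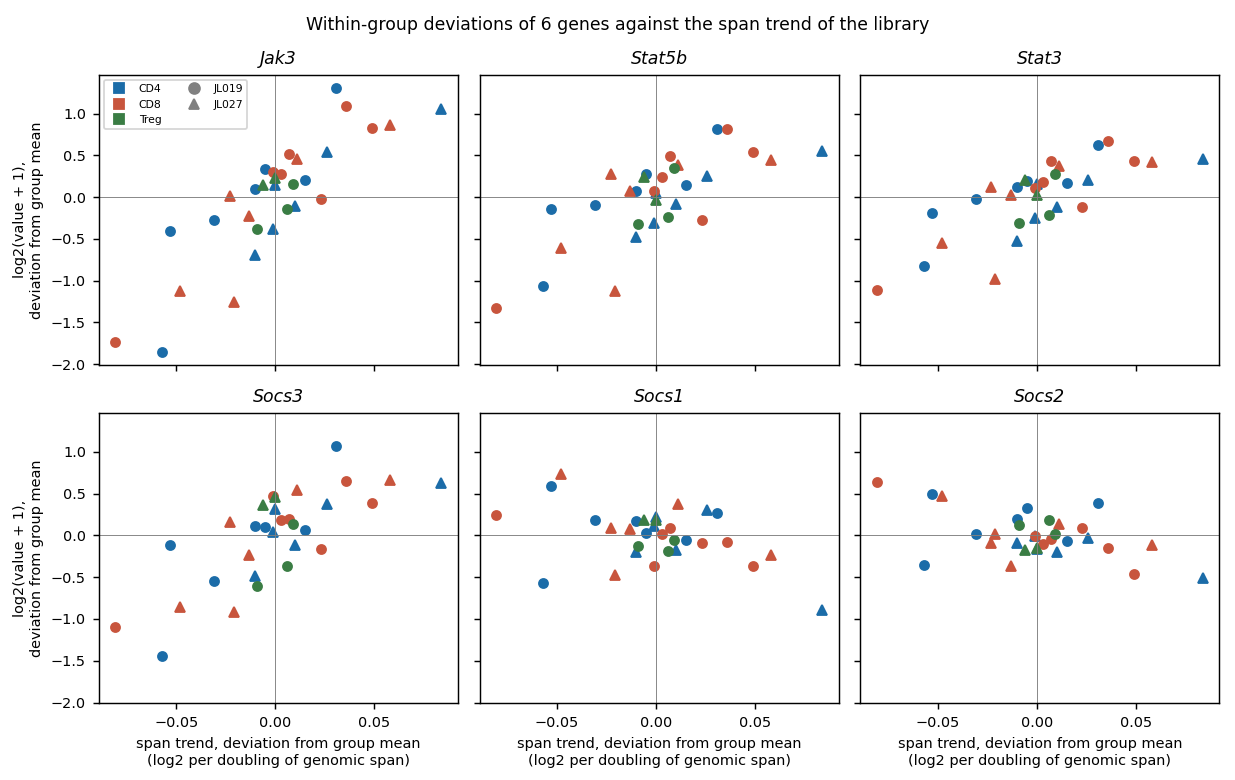
Deviation of 6 genes from their group mean (log2(value + 1), y axis) against the deviation of the library's span trend (x axis) in 31 libraries; points are libraries, coloured by cell type, circles JL019 and triangles JL027. Jak3 (r 0.85), Stat5b (0.75), Stat3 (0.76) and Socs3 (0.76) rise along the axis, and Socs1 (-0.43) and Socs2 (-0.52) slope the other way.

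Other genes of the pathway were taken from 5 lists by role, whose counts are to be read against the shares of all genes called in the same comparison: 22.2% for Treg treatment in CD4 cells, 30% for Treg against CD4 cells, 21.1% for CD8 and 14.6% for CD4 allogeneic against syngeneic cells. The lists were not counted with the span trend as a covariate, under which the first share was 0.418%. Among 6 other JAK and STAT genes, 3 fell and 1 rose in CD4 cells with Treg treatment, with a list median of -0.80 against 0.00 for all genes. Those that fell were Stat6 (-1.57), which relays interleukin 4, and the kinase genes Jak2 (-1.10) and Tyk2 (-1.03). In Treg against CD4 cells of Treg-treated recipients, 4 of the 6 were higher and 0 lower, among them Stat2 (1.65) and Jak2 (1.40). In CD8 cells, Jak1 (-0.85) was lower in allogeneic than in syngeneic recipients.

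Of 14 other inhibitor genes, 1 rose and 3 fell in CD8 allogeneic against syngeneic cells. Usp18, which damps the type I interferon receptor, fell by 2.75 (SE 0.21, limma adjusted p = 1.56e-10), Sh2b3 fell by 1.45 and Ptpn6, a phosphatase gene, fell by 1.09. Pias3 rose by 1.52. In Treg against CD4 cells, 5 of the 14 were higher, including Socs5 (1.84) and Socs6 (0.86), and 2 were lower, Ptpn11 (-1.42) and Ptpn6 (-1.32).

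Of 20 receptor chains, 11 were higher and 0 lower in Treg than in CD4 cells of Treg-treated recipients, with a median of 0.94 against 0.14 for all genes. Il10ra was higher by 3.33 and Il2ra, the high-affinity chain of the interleukin 2 receptor, by 2.53. In CD8 cells, 4 receptor genes were higher and 9 lower in allogeneic than in syngeneic recipients. Il2ra was at a mean of 6407 against 274, a log2 change of 4.53, and Il6ra at 34.7 against 1094, a change of -4.93. In CD4 cells, Il12rb2, the chain that couples interleukin 12 to STAT4, was at 6131 in allogeneic and 170 in syngeneic cells (5.40, SE 0.54, limma adjusted p = 4.93e-08), and at 2423 with Treg treatment (-1.77, adjusted p = 0.0179).

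Of 12 cytokine genes, 11 were in the table. In CD4 cells, 5 rose and 0 fell with Treg treatment, including Il2 from a mean of 107 to 593 (2.54) and Il4 from 275 to 1536 (2.44). In Treg against CD4 cells, 4 were lower and 1 higher. Il2 was at 5.51 in Treg and 593 in CD4 cells (-6.53, SE 0.57, limma adjusted p = 4.9e-09), and Il10 was higher in Treg by 2.49.

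Of 17 other STAT target genes, 4 rose and 6 fell in CD8 allogeneic against syngeneic cells. Prdm1 rose by 4.48, while Ccnd2 fell by 2.93, Bcl2 fell by 2.42 and Myc fell by 2.10, the last 3 being genes of division and survival. In CD4 cells the same comparison gave 7 higher and 3 lower. The part of the myeloid and NK cell marker sums given above in these counts was not tested. In CD8 cells, 0 genes of the 5 lists were called with Treg treatment, where 0.0657% of all genes were called, so the count says nothing about the lists.

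**Figure D5:**
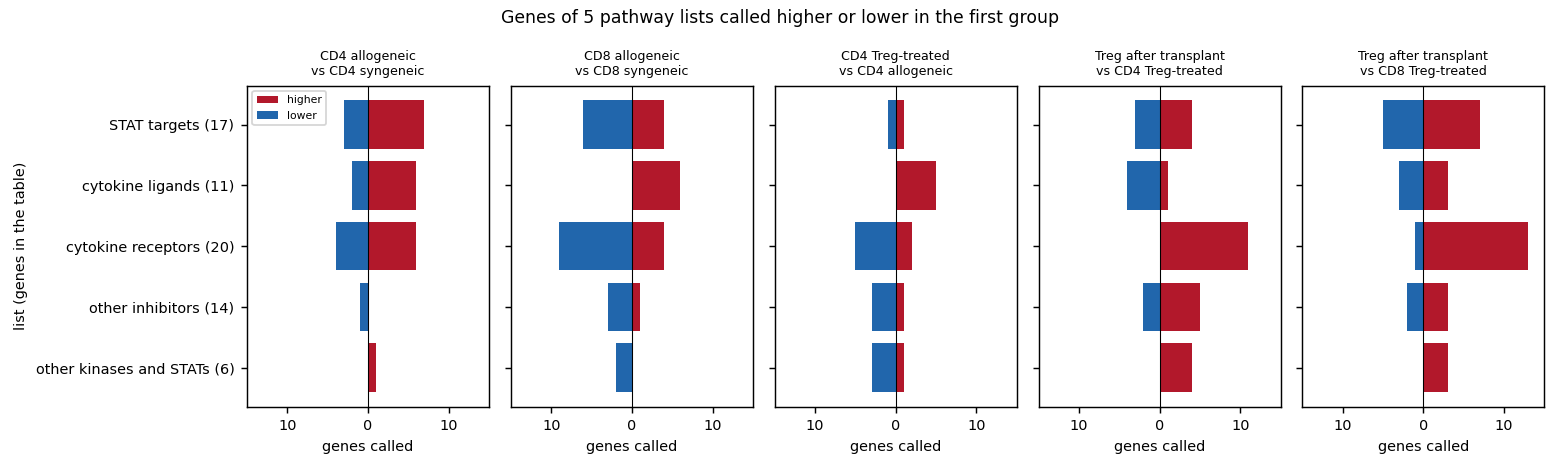
Number of genes called higher (red, to the right) or lower (blue, to the left) in the first group, for 5 pathway lists in 5 comparisons, with the number of genes in the table in brackets. Receptor genes show 11 higher and 0 lower in Treg against CD4 cells and 4 higher and 9 lower in CD8 allogeneic against syngeneic cells.

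Genes with the most similar group means were sought among 9910 genes with a mean value of at least 100, by Pearson's r over the 10 group means of log2(value + 1). Socs2 was most like Ccrl2 (0.947), Samhd1 (0.946) and Aldoc (0.942), and Pim1 was also most like Ccrl2 (0.946), followed by Cebpb (0.938). Cish was most like Bcl3 (0.945) and Cxcl10 (0.942), and Socs1 most like Cd37 (0.925) and Bcl10 (0.913). Stat4 had Ildr1 (0.964), Fbxo22 (0.954) and Ptpn22 (0.953) as its nearest. Socs3 was nearest to Nuak2 (0.957), Stat3 to Cep170b (0.960), Stat5a to Dpy19l3 (0.963), Stat5b to Lmbr1l (0.961) and Jak3 to Zc3hav1 (0.945). These values describe the levels of 10 groups that share libraries and normalisation, and groups at the extremes weigh most.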

How the data were processed

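The deposited RNA table gives 1 signal value per gene and library, read here as counts normalised with DESeq2 by the authors, per the file headers (base mean and adjusted p columns beside the libraries). The submitters' processing notes name FastQC 0.11.7, kallisto, DESeq2 and the builds GRCm38 and mm10. The library mean equalled the deposited base mean within a relative gap of 5.9e-07. Low values were whole multiples of a common step in 3.61% of cases (tolerance 0.02), so reads were not recovered.

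One group-means model over 31 libraries and 10 groups was fitted with limma 3.58.1 (R 4.3.3; trend and robust options) on log2(value + 1), with Benjamini-Hochberg adjustment over 16741 genes at 0.05. A filter on a mean value of at least 1 removed 0 genes, and 1 row without a symbol was kept. This scale understates changes of low values. Depth per library is unknown. Figures were drawn with matplotlib 3.10.9 in Python 3.11.15.

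The members and lists were chosen with earlier results of these data known. Named genes were the 10 members, up to 3 rising and 3 falling called genes per list and comparison with the lowest adjusted p, and the 3 genes most like each member; not all of them are printed. Spans came from RefSeq (GRCm38.p6) for 15855 genes. The authors' fold change and test columns and the TCR tables were not used here, and 1 gene of the pathway lists is not reported here by name.

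CD4 and CD8 libraries of 1 recipient share a number. Their deviations had r of 0.13 to 0.42 between CD4 and CD8 allogeneic, -0.11 to 0.43 between CD4 and CD8 Treg-treated and -0.11 to 0.14 between CD4 and CD8 syngeneic cells. Treg after transplant had r of -0.07 and -0.06 with CD4 and 0.28 and 0.30 with CD8 cells of the same recipient, and the numbers did not pair the treatments (-0.17 to 0.19). Alternatives covered the pseudocount, filters, normalisation, covariates, blocks, the groups fitted and each library left out.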

Additional observations from a re-analysis of the deposited data

Results flagged for a closer look

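In groups of 4 libraries, 8 of 40 tests found 1 library of the group far from the others relative to the group's range, by Dixon's criterion on the log2 scale. Chance flags about 1 in 20 such tests, and values of several genes in 1 library are not independent. All 8 were in a library named JL027-1. In CD4 allogeneic JL027-1, Stat3 was low at 5988 and Stat5a low at 1485. In CD8 allogeneic JL027-1, Stat5a (625), Stat5b (1713), Jak3 (1834) and Pim1 (668) were low. In CD4 Treg-treated JL027-1, Stat4 was high at 17449 and Jak3 high at 4037.

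For 3 genes the allogeneic against syngeneic change differed between CD8 and CD4 cells by limma's test of the difference: Cish (-1.95), Socs1 (-1.75) and Stat4 (-1.25, log2 units, CD8 minus CD4).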

How the results depend on the processing

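Of 711 alternative values for the 40 called changes, 630 kept the call, 79 lost it and 2 reversed, and 21 changes were called under every alternative run, among them 8 of Socs2 and 6 of Cish. With the span trend as a covariate, an alternative chosen after seeing the data, Socs3 (-0.048) and Stat3 (-0.174) reversed between Treg after transplant and CD4 Treg-treated cells. The cause was not tested. Read depth is unknown, so precision at low values is not given.

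Counts of the 10 genes called moved as follows, each with the share of all genes called at the same setting. For CD4 syngeneic against day 0 (2, 13%), quantile normalisation gave 4 (18.4%), the library mean as a covariate 4 (12.9%), leaving out the 3 libraries that stood apart in span trend, also chosen after seeing the data, 4 (11.4%) and fitting only the groups compared 0 (1.4%). For CD4 allogeneic against syngeneic (2, 14.6%), quantile normalisation gave 1 (16.1%), fitting only those groups 1 (6.58%), the library mean 4 (20.6%) and the span trend 4 (21%). For CD8 allogeneic against syngeneic (2, 21.1%) the library mean gave 5 (28.4%), the span trend 4 (26.8%) and leaving out the 3 libraries 6 (32%). For CD4 Treg-treated against allogeneic (1, 22.2%) the library mean gave 0 (3.4%), the span trend 0 (0.418%), leaving out the 3 libraries 6 (41.7%) and fitting only those groups 5 (25.1%). The library mean gave 7 (30.7%) for CD4 allogeneic (4, 24%) and 8 (37.3%) for CD8 allogeneic (4, 30.4%) against day 0. For Treg after transplant against day 0 (1, 13.3%) the library mean gave 7 (26.8%), the span trend 6 (22.8%), leaving out the 3 libraries 3 (21.6%) and fitting only those groups 6 (23.9%). For Treg after transplant against CD4 Treg-treated (5, 30%) the library mean gave 2 (18%) and the span trend 1 (11.2%). Fitting only the groups compared gave 5 (10.8%) for CD8 against CD4 day 0 (2, 3.32%) and 1 (2.95%) for the difference between CD8 and CD4 of allogeneic against syngeneic (3, 4.65%). Leaving out the 3 libraries gave 3 (21.1%) for the difference between CD8 and CD4 of Treg-treated against allogeneic (0, 0.00597%) and 3 (31.7%) for the difference between times of Treg against CD4 (0, 4.71%).

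Leaving out each library in turn gave 0 to 3 for CD4 syngeneic against day 0, 1 to 3 for CD4 allogeneic against syngeneic, 2 to 4 for CD8 allogeneic against syngeneic, 0 to 4 for CD4 Treg-treated against allogeneic, 2 to 4 for CD4 allogeneic against day 0, 1 to 1 for Treg against CD4 at day 0, 2 to 7 for Treg after transplant against CD4 Treg-treated and 0 to 3 for the difference between CD8 and CD4 of allogeneic against syngeneic. With the prefix as a replicate block, 39 of 40 calls held and Stat3 in Treg after transplant against CD4 Treg-treated was not called (0.960, limma adjusted p = 0.0577). With the recipient as a replicate block, all 40 held, and 3 more were called: Jak3 (1.63, limma adjusted p = 0.0338) and Stat5b (1.10, adjusted p = 0.0395) in Treg after transplant against CD4 Treg-treated, and Pim1 (1.33, adjusted p = 0.042) in Treg against CD4 at day 0. Neither block moved a count by over 1.5 times. In the recipient setting, day 0 libraries, which have no recipient, were blocked by prefix, and Treg after transplant JL027 stood in a block alone. Centring libraries on their median shifted the median of all genes by up to 0.202 upward (CD4 Treg-treated against allogeneic) and -0.216 downward (Treg after transplant against CD4 Treg-treated).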
